A study of Mus musculus with 22 samples.

Results

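Interleukin-10 (IL-10) was added to lipopolysaccharide (LPS) on mouse macrophages for 12 h, and 4 libraries measure the outcome. They were chosen by their labels, 2 that received both agents for 12 h and 2 that received LPS for 12 h, out of 22 libraries in the series. The cells were bone marrow-derived macrophages, a primary culture in which marrow from mice aged 6 to 12 weeks is grown for 7 to 8 days in medium with L929 cell supernatant. All libraries came from Il10-/- C57BL/6 animals, so the cells of both groups lack their own IL-10. The groups are LPS with IL-10 (100 ng/ml of each, 12 h) and LPS alone (100 ng/ml, 12 h). For context, 5 further groups of 2 libraries each enter the fit: LPS with IL-10 at 6 h, LPS at 6 h, IL-10 alone at 12 h, IL-10 alone at 6 h, which adds to the estimate of the spread alone, and an untreated control whose harvest time the labels do not give. The labels do not say whether the 2 libraries of a group came from separate cultures or mice, so the p-values measure the spread between libraries, which may be technical.

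LPS is a bacterial cell wall component that signals through Toll-like receptor 4 to NF-κB and interferon regulatory factors, and macrophages answer with cytokines, chemokines and interferon-stimulated genes. IL-10 binds a receptor made of Il10ra and Il10rb, activates the kinases Jak1 and Tyk2 and the transcription factor Stat3, and is known for holding back inflammatory gene expression in macrophages. Socs3, Bcl3, Nfil3, Sbno2 and Il4ra are well-known genes of this response.

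Depth was 26448928 and 18412505 reads in the LPS with IL-10 libraries and 18909708 and 20929842 reads in the LPS libraries, within the range of 15162195 to 31772075 reads over the 14 libraries of the table. Values are normalized reads, which the authors made by scaling each library's counts with one factor. All 14 macrophage markers were measured, with summed levels of 506577 and 410301 normalized reads with IL-10 added and 466667 and 567950.2 with LPS alone. Of the marker lists of other cell types, Cd3e, Blk, Cd209a, Col3a1, Pdgfra, Mcpt8 and Klf1 were at 0 in all 4 libraries. The 9 fibroblast markers summed to 138 and 88.8 normalized reads with IL-10 added and 229.9 and 336 with LPS alone, and 1 of the 3 tested, Lum, was called lower. The 9 dendritic cell markers summed to 258 and 159.8 normalized reads with IL-10 added and 838 and 800.0 with LPS alone, mostly from Ccr7, the 1 of 7 tested that was called lower. The 10 T cell markers summed to 2665 and 3207 normalized reads with IL-10 added and 3756 and 3443 with LPS alone, mostly from Il7r, and the 9 erythroid and megakaryocyte markers to 3072 and 2314 normalized reads with IL-10 added and 3287 and 4073 with LPS alone, mostly from Pf4, with none called in either list. The part of these markers in the results was not tested. In bulk RNA, fewer cells of a type and less RNA per cell cannot be told apart.

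The libraries of one group stood apart from each other. Between the LPS with IL-10 libraries 1001 of 12817 genes differed by over 2-fold, and between the LPS libraries 1448 did. The first LPS with IL-10 library differed by over 2-fold from the second LPS library in 1335 genes and from the first in 1639, whereas the second LPS with IL-10 library differed from them in 2970 and 2280. The difference between the LPS with IL-10 libraries ran along the GC content of the genes (Spearman correlation of first minus second -0.421 across 12688 genes, which are not independent), and that between the LPS libraries ran the other way (0.212). Over the 7 groups of the table, genes over 2-fold apart ran from 267 (IL-10 alone at 6 h) to 2283 (control). The correlation with GC content ran from -0.569 (IL-10 alone at 12 h) to 0.814 (control), so such differences are not particular to the groups compared. Results that rest on differences within the 12 h groups are given library by library.

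Adding IL-10 to LPS for 12 h raised 344 genes and lowered 286 of 12817 tested, which is 2.68% and 2.23%, or 4.92% in all (limma, Benjamini-Hochberg adjusted p under 0.05). Scaling by library totals gave 279 higher and 145 lower, edgeR gave 404 higher and 217 lower, and the median change of all genes was -0.06 on the log2 scale, or 0.07 with library totals. For all 630 genes called, both LPS with IL-10 libraries lay on one side of both LPS libraries, which was true of 46.6% of all genes tested. A lack of overlap in a called gene is therefore a description and adds no support to the call. Leaving out the second LPS with IL-10 library left 51 higher and 35 lower (0.398% and 0.273%), while leaving out the first left 374 and 617 (2.92% and 4.81%). Without the first LPS library the counts were 380 and 107 (2.96% and 0.835%), and without the second 219 and 406 (1.71% and 3.17%). Changes below are on the log2(normalized reads + 1) scale as LPS with IL-10 over LPS, with the standard error (SE) of the fit. Levels under 5 normalized reads are a handful of reads, and changes against them depend on the added 1.

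The largest rise among genes with at least 100 normalized reads in the higher group was in Hp (chr8:109575128-109579172, minus strand), which encodes haptoglobin, the plasma protein that binds free haemoglobin. It was at 1864 and 3284 normalized reads in the LPS with IL-10 libraries, against 31.3 and 48.9 in the LPS libraries (log2 change 5.95 ± 0.55, adjusted p = 0.00042). Saa1 (chr7:46740497-46742980, minus strand), an acute-phase serum amyloid protein, had 203 and 316 normalized reads with IL-10 added, against 3.61 and 8.39 with LPS alone (log2 change 5.27 ± 0.75, adjusted p = 0.004). Both genes were low under LPS alone and higher in each LPS with IL-10 library than in either LPS library. Saa3, the serum amyloid of macrophages, was at 342873 and 437587 normalized reads with IL-10 added and 80948 and 85996 with LPS alone. Its groups did not overlap, but its change of 2.21 ± 0.70 did not pass the test (adjusted p = 0.10). The spread in the fit is pooled over all groups, and Saa3 had 9371 and 1053 normalized reads with IL-10 alone, against 169 and 174 in control libraries.

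Arg1 (chr10:24915221-24927484, minus strand), the enzyme that cleaves arginine into ornithine and urea, was at 355 and 561 normalized reads in the LPS with IL-10 libraries, against 21.7 and 11.2 in the LPS libraries (log2 change 4.75 ± 0.69, adjusted p = 0.0043). Nos2, the inducible nitric oxide synthase that uses the same substrate, had 30114 and 25522 normalized reads with IL-10 added and 39505 and 47521 with LPS alone (log2 change -0.64 ± 1.16, adjusted p = 0.84). Arg1 groups lay far apart, and Nos2 was lower in both LPS with IL-10 libraries than in either LPS library without passing the test.

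Other large rises were in genes of the cell surface and of secreted proteins. The adhesion molecule Selp (P-selectin) had 222 and 442 normalized reads with IL-10 added, against 12.0 and 32.2 with LPS alone (log2 change 3.92 ± 0.51). The membrane protein Tm4sf1 had 162 and 249.8 normalized reads with IL-10 added, against 10.8 and 15.4 with LPS alone (3.86 ± 0.43). The adenosine receptor Adora3 was at 194 and 359 normalized reads with IL-10 added and 24.1 and 21.0 with LPS alone (3.49 ± 0.32). In all 3 the lower LPS with IL-10 library was several times above the higher LPS library. Timp1, the secreted inhibitor of matrix metalloproteases, was at 521 and 786 normalized reads with IL-10 added, against 50.6 and 53.1 with LPS alone (3.60 ± 0.27). Chil1, a secreted chitinase-like lectin, was at 640.2 and 964 normalized reads with IL-10 added, against 42.1 and 67.1 with LPS alone (3.86 ± 0.71), and Abi3, an actin regulator of the Abl interactor family, was at 98.3 and 198 normalized reads with IL-10 added and 10.8 and 6.99 with LPS alone (3.85 ± 0.63). Adjusted p-values of these 6 genes lay between 0.00014 and 0.013.

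**Figure D1:**
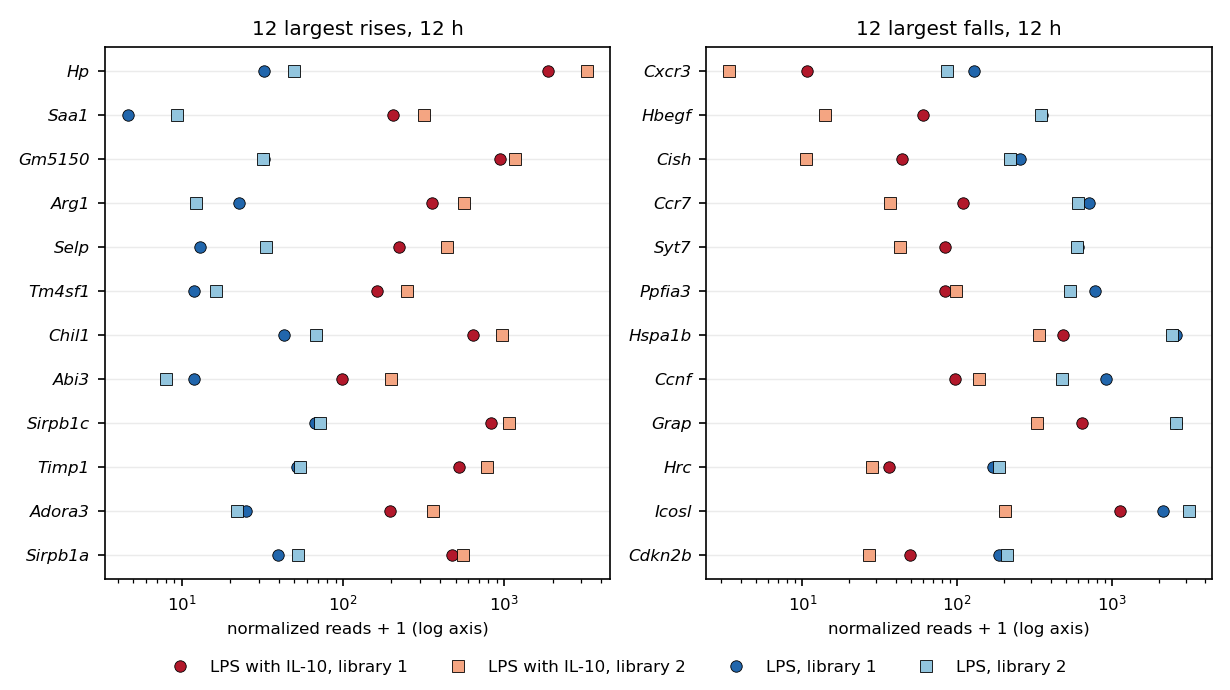
Normalized reads plus 1 (log axis) in each of the 4 libraries at 12 h for the 12 genes with the largest rises (left) and the 12 with the largest falls (right) under IL-10, among genes past the threshold with a mean of at least 100 normalized reads in the higher group. Red and orange points are the LPS with IL-10 libraries, dark and light blue points the LPS libraries. Hp stands at 1864 and 3284 with IL-10 added, against 31.3 and 48.9 with LPS alone.

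A block of paired receptor genes on chromosome 3 rose together. Signal-regulatory protein (SIRP) beta proteins are cell surface receptors that pair with the adaptor Tyrobp, whereas the related Sirpa carries inhibitory motifs. Gm5150 (chr3:15946870-16006437, minus strand) was at 936 and 1160.3 normalized reads in the LPS with IL-10 libraries, against 31.3 and 30.8 in the LPS libraries (log2 change 5.03 ± 0.34, adjusted p = 0.00013). Sirpb1c (chr3:15795145-15848528, minus strand) had 827 and 1069 normalized reads with IL-10 added, against 66.2 and 71.3 with LPS alone (log2 change 3.76 ± 0.26, adjusted p = 0.00013). Sirpb1a (chr3:15371653-15426520, minus strand) was at 473 and 558 normalized reads with IL-10 added and 38.5 and 51.7 with LPS alone (log2 change 3.49 ± 0.34, adjusted p = 0.00049). In these genes the libraries of a group lay close together and the groups far apart. Sirpb1b was at 226 and 252 normalized reads with IL-10 added and 33.7 and 39.2 with LPS alone (log2 change 2.68 ± 0.26, adjusted p = 0.00049). Gm9733 had 41.8 and 43.8 normalized reads with IL-10 added and 8.43 and 11.2 with LPS alone (log2 change 2.03 ± 0.58), which did not pass the test. Sirpa, on another chromosome, had 35498 and 40322 normalized reads with IL-10 added and 37528 and 40850.1 with LPS alone, with overlapping groups. These paralogs are alike in sequence and the counting tool is not given in the sources used here, so reads may have been divided among them. The list of SIRP genes was drawn up after their values were seen.

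The promoters of 4 SIRP genes are shown because these genes moved together and their upstream DNA is itself duplicated. Each line is the 250 bases before the RefSeq start, 5′ to 3′ on the gene's minus strand (RefSeq, GRCm38.p6). RefSeq starts differ here from the ends of the GENCODE genes given above. Capitals mark the 9 letters that match TTCNNNGAA, the core of a STAT binding motif, which reads the same on both strands. The windows are chr3:15426428-15426677, minus strand for Sirpb1a, chr3:15575066-15575315, minus strand for Sirpb1b, chr3:15848488-15848737, minus strand for Sirpb1c and chr3:16006333-16006582, minus strand for Gm5150.
Sirpb1a: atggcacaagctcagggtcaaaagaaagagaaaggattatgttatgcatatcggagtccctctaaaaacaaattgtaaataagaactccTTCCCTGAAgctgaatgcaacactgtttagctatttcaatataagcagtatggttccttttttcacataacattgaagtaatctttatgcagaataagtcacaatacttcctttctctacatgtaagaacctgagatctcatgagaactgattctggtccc
Sirpb1b: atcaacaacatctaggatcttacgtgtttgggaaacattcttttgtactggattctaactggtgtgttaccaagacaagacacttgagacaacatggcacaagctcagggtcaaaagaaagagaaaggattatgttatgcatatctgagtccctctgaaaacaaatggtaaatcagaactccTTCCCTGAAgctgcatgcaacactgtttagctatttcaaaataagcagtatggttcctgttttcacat
Sirpb1c: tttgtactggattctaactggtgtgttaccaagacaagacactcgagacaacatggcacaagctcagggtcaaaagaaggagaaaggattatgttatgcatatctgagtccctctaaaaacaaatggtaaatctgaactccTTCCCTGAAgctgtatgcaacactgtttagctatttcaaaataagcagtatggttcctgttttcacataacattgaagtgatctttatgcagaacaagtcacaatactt
Gm5150: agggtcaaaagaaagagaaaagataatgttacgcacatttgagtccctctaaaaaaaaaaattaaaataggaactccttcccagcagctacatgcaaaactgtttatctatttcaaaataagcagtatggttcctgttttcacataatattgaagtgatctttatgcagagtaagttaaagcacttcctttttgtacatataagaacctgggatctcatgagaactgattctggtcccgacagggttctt
Sirpb1b and Sirpb1c were identical at 97.6% of 209 aligned bases and Sirpb1a and Sirpb1c at 94.9% of 198, in ungapped alignment at the best offset. Sirpb1a and Gm5150 matched at 75.2% of 238. The same 9 letters stood in the first 3 windows, starting 161, 68 and 109 bases before the start of Sirpb1a, Sirpb1b and Sirpb1c, and the Gm5150 window did not hold these letters. Over all mouse genes with a window of this length, 7.11% held the motif. It was in 7.38% of the 271 windows of genes called higher and 9.95% of the 221 windows of genes called lower, against 6.30% of the 9401 windows of genes tested. A C/EBP core (TTGCNNAA on either strand) was in 12.2% of windows of genes called higher, 7.69% of windows of genes called lower, 7.66% of windows of genes tested and 9.53% of all. The window of Saa1, at chr7:46742981-46743230, minus strand, held the C/EBP core, in capitals.
Saa1: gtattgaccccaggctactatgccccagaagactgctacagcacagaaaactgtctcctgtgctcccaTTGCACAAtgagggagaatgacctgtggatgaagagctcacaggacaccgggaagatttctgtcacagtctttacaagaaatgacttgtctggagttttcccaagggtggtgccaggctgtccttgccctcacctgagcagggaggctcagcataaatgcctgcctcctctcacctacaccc

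Receptors for other cytokines were among the genes that rose. Of 25 cytokine and chemokine receptors tested, 7 were higher (28.0%, against 2.68% of all genes) and 0 lower. The list did not hold the chemokine receptors Cxcr3 and Ccr7, which fell and are given below. The list median was 0.44 on the log2 scale against -0.06 for all genes. Il4ra, the shared receptor chain for IL-4 and IL-13, had 18619 and 35569 normalized reads with IL-10 added, against 3648 and 3443 with LPS alone (log2 change 2.86 ± 0.36, adjusted p = 0.0023). Il21r, the IL-21 receptor, had 2272 and 3700.0 normalized reads with IL-10 added, against 466 and 313 with LPS alone (log2 change 2.92 ± 0.26, adjusted p = 0.00038). Both were called in each fit that left out 1 library. Il1r1, the signalling IL-1 receptor, was low, with 83.7 and 97.1 normalized reads with IL-10 added and 3.61 and 2.80 with LPS alone (log2 change 4.44 ± 0.48, adjusted p = 0.00096). Il6ra, the IL-6 receptor, was at 585 and 1049 normalized reads with IL-10 added and 279 and 151 with LPS alone (log2 change 1.93 ± 0.32, adjusted p = 0.0088). Il6st, Ifngr1 and Csf3r, receptor chains for IL-6, interferon gamma and granulocyte colony-stimulating factor, also rose. Without the second LPS with IL-10 library 3 of the 25 receptors were called higher.

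Of 13 members of the IL-10 receptor and Stat3 pathway Cish alone passed the test, and it fell (7.69% lower, against 2.23% of all genes). Stat3 had 7006 and 5735 normalized reads with IL-10 added and 6729 and 9365 with LPS alone (log2 change -0.32 ± 0.22, adjusted p = 0.46). Socs3, the feedback inhibitor of cytokine receptors, had 10271 and 14149.9 normalized reads with IL-10 added and 6637 and 8439 with LPS alone (0.69 ± 0.40, adjusted p = 0.39). Among 25 known STAT3 and IL-10 response genes 5 rose and 1 fell, with a median of 0.27. That is 20% higher and 4% lower, against 2.68% and 2.23% of all genes, so the single fall is near the share of all genes. The 5 were Il4ra, Timp1, Etv3, Ednrb and Gcnt2. Ednrb, the endothelin B receptor, was at 2288 and 3217 normalized reads with IL-10 added, against 755 and 799 with LPS alone (log2 change 1.80 ± 0.28, adjusted p = 0.0067). Nfil3, Bcl3, Sbno2 and Il1rn did not pass, with changes of 0.11 ± 0.18, 0.16 ± 0.47, 1.06 ± 0.53 and 0.27 ± 0.81. Without the second LPS with IL-10 library 2 of the 25 genes were called higher and 1 lower.

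The largest fall was in Cxcr3 (chrX:101731535-101734269, minus strand). This chemokine receptor, which binds Cxcl9, Cxcl10 and Cxcl11, was at 9.73 and 2.37 normalized reads in the LPS with IL-10 libraries, against 128 and 85.3 in the LPS libraries (log2 change -4.13 ± 0.50, adjusted p = 0.0019). Ccr7, the receptor that guides dendritic cells to lymph nodes, was at 108 and 35.5 normalized reads with IL-10 added, against 704 and 600.0 with LPS alone (log2 change -3.37 ± 0.53, adjusted p = 0.0065). Hbegf, a ligand of the epidermal growth factor receptor, had 59.4 and 13.02 normalized reads with IL-10 added and 353 and 348 with LPS alone (-3.59 ± 0.54). Cish, a feedback inhibitor of Stat5 signalling, had 42.8 and 9.47 normalized reads with IL-10 added and 254 and 218 with LPS alone (-3.46 ± 0.55). In each of these 4 genes the second LPS with IL-10 library was lower than the first, and both lay below both LPS libraries.

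Other large falls spanned several functions. Syt7, a calcium sensor of membrane fusion, was at 82.7 and 41.4 normalized reads with IL-10 added, against 604 and 594 with LPS alone (-3.33 ± 0.53). Icosl, the ligand of the T cell co-stimulator Icos, had 1115 and 204 normalized reads with IL-10 added, against 2134 and 3136 with LPS alone (-2.44 ± 0.56). Hspa1b, the stress-induced Hsp70 chaperone, had 481 and 335 normalized reads with IL-10 added, against 2586 and 2421 with LPS alone (-2.64 ± 0.34). The first LPS with IL-10 library was several times above the second for Icosl and less far above it for Syt7 and Hspa1b. Ccnf, the cyclin of a ubiquitin ligase, was at 96.3 and 136 normalized reads with IL-10 added and 914 and 477 with LPS alone (-2.52 ± 0.32). Cdkn2b, an inhibitor of the cell cycle kinases Cdk4 and Cdk6, was at 48.6 and 26.0 normalized reads with IL-10 added and 185 and 207 with LPS alone (-2.43 ± 0.34). The scaffold gene Ppfia3, the signalling adaptor Grap and the calcium-binding protein gene Hrc changed by -2.84 ± 0.54, -2.50 ± 0.40 and -2.48 ± 0.62. Adjusted p-values of these 8 genes lay between 0.0024 and 0.048.

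The calls differed in how far they rested on 1 library. Hp, Gm5150, Selp, Tm4sf1, Sirpb1c, Timp1, Adora3 and Sirpb1a among the rises, and Cxcr3, Hbegf, Cish, Hspa1b, Ccnf and Cdkn2b among the falls, passed whichever library of the table was left out. Without the second LPS with IL-10 library Saa1 (4.96 ± 0.96, adjusted p = 0.059) and Arg1 (4.42 ± 0.88, adjusted p = 0.065) did not pass. Nor did Chil1, Abi3, Ccr7, Syt7, Ppfia3, Grap, Hrc and Icosl. Without the first LPS library Chil1 (3.53 ± 0.89, adjusted p = 0.064) and Ppfia3 (-2.57 ± 0.68, adjusted p = 0.074) did not pass. Hrc was not called without any 1 of the 4 libraries, nor Icosl without either LPS library. With the 4 libraries alone in the fit 34 genes rose and 18 fell, and Selp, Cxcr3, Hbegf, Cish, Ccr7, Ccnf, Icosl and Cdkn2b were not among them.

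For the inflammatory cytokines the 2 LPS with IL-10 libraries differed. None of 20 cytokine genes passed the limma test, with 1 higher and 5 lower at an unadjusted p under 0.05, 0 called by edgeR, and 1 higher and 1 lower by DESeq2. The median log2 change was -1.55. Il1b was at 127703 and 2135 normalized reads in the LPS with IL-10 libraries, against 72469 and 211661 in the LPS libraries (log2 change -2.91 ± 1.41, adjusted p = 0.29). Tnf was at 87528 and 3275 normalized reads with IL-10 added, against 38464 and 131395 with LPS alone (-2.07 ± 1.13). Il6 was at 46554 and 508 normalized reads with IL-10 added, against 14560.0 and 54961 with LPS alone (-2.54 ± 1.53). In all 3 the first LPS with IL-10 library lay between the LPS libraries and the second lay far below both. Il12b, the shared subunit of IL-12 and IL-23, was at 20886 and 347 normalized reads with IL-10 added, against 30149 and 49119.7 with LPS alone (-3.84 ± 1.36, adjusted p = 0.14), both LPS with IL-10 libraries lying below both LPS libraries.

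The same order of libraries ran through the list. The second LPS with IL-10 library was below both LPS libraries in 19 of 20 cytokine genes, against 41.9% of all genes tested, and the first lay between the LPS libraries in 13, against 34.6%. Leaving out the first LPS with IL-10 library, 12 of the 20 were called lower, against 4.81% of all genes, with a median of -2.89. In that fit Il1b changed by -5.86 ± 0.79, adjusted p = 0.0034, and Il12b by -6.79 ± 0.64, adjusted p = 0.00073. Leaving out the second, 0 were called, the median was 0.01, and Il1b changed by 0.04 (SE 0.79). What sets the LPS with IL-10 libraries apart was not tested.

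**Figure D2:**
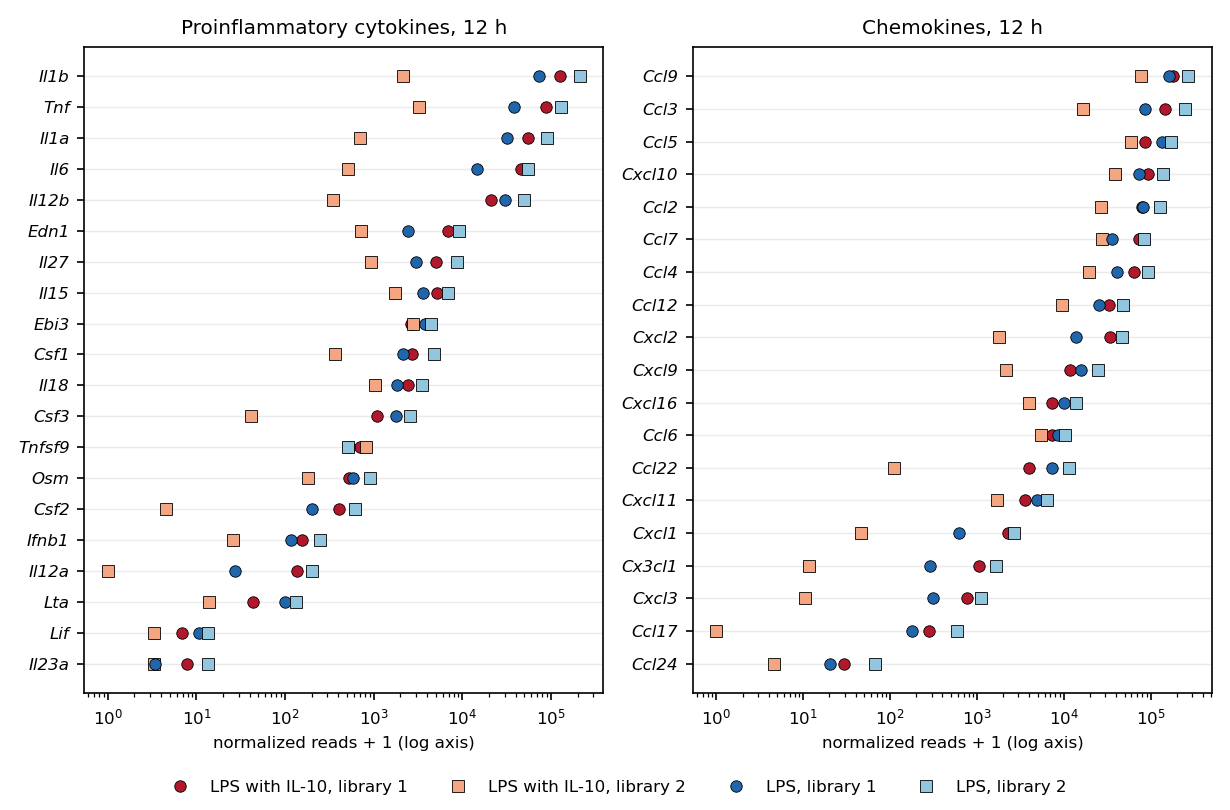
Normalized reads plus 1 (log axis) in each of the 4 libraries at 12 h for 20 proinflammatory cytokines (left) and 19 chemokines (right). Red circles and orange squares are LPS with IL-10 libraries 1 and 2, dark and light blue points LPS libraries 1 and 2. The orange squares lie below both LPS libraries for 19 of the 20 cytokines and for all 19 chemokines, while the red circles lie between the LPS libraries for 13 cytokines and 12 chemokines.

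Chemokines had the same order of libraries. Cxcl16, a membrane-bound chemokine, was the 1 gene of 19 that fell, at 7283 and 3947 normalized reads in the LPS with IL-10 libraries, against 10132 and 13938 in the LPS libraries (log2 change -1.15 ± 0.29, adjusted p = 0.047), and it was called in 3 of the 14 fits that left out 1 library. This 1 gene was 5.26% of the list, against 2.23% of all genes called lower. With library totals, TMM or quantile normalization, by edgeR and with a replicate block no chemokine was called. Ccl22, a chemokine for T helper 2 and regulatory T cells, was at 3961 and 111 normalized reads with IL-10 added, against 7296 and 11323 with LPS alone (-3.77 ± 1.17, adjusted p = 0.096). Ccl2, which attracts monocytes, was at 78667 and 26819 normalized reads with IL-10 added, against 80559 and 126965 with LPS alone (-1.14 ± 0.41). The first LPS with IL-10 library was below both LPS libraries for Ccl22 and Ccl2, close to the lower one for Ccl2. The neutrophil attractant Cxcl1 was at 2273 and 45.0 normalized reads with IL-10 added and 615 and 2677 with LPS alone (-1.99 ± 1.34), with the first LPS with IL-10 library between the LPS libraries. The median change of the 19 was -1.91 without the first LPS with IL-10 library and -0.20 without the second. Ccl8, a monocyte attractant outside this list, had 1735 and 1423 normalized reads with IL-10 added and 1336 and 1758 with LPS alone, with overlapping groups (log2 change 0.04 ± 0.30).

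None of 33 interferon-stimulated genes passed the limma test, with 0 higher and 1 lower at an unadjusted p under 0.05 and 0 called by edgeR or DESeq2. Their median was -0.23. Oasl1, an antiviral oligoadenylate synthetase-like gene, was at 12004 and 11474 normalized reads with IL-10 added, against 27266 and 27813 with LPS alone (-1.23 ± 0.51, adjusted p = 0.21). Isg15, a ubiquitin-like modifier, was at 28945 and 23438 normalized reads with IL-10 added and 42185 and 48837 with LPS alone (-0.80 ± 0.41). In both genes the LPS with IL-10 libraries lay below both LPS libraries, which held for 6 of the 33 genes, against 25.5% of all genes tested. The second LPS with IL-10 library was below both LPS libraries in 25 genes (75.8%, against 41.9% of all genes tested). The first lay between the LPS libraries in 27 (81.8%, against 34.6%). No gene of this list was called on leaving out either LPS with IL-10 library.

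None of the genes that carry or control the LPS signal passed in the fit with all libraries. Over all genes tested, 9.49% were higher and 10.4% lower at an unadjusted p under 0.05, edgeR called 3.15% higher and 1.69% lower, and DESeq2 called 4.06% higher and 4.21% lower. Of 21 NF-κB subunits and Toll-like receptor 4 signalling genes, 1 was higher and 5 were lower at an unadjusted p under 0.05, edgeR called 0 and DESeq2 called 4 lower. Without the first LPS with IL-10 library 6 of the 21 were called lower, and without either control library 3 were. Of 22 negative regulators of this signalling, 4 were higher and 3 lower at an unadjusted p under 0.05, edgeR called 0 and DESeq2 called 1 higher and 1 lower. Without the first LPS with IL-10 library 3 of these were called lower and 1 higher. Of 16 inflammasome genes 3 were higher at an unadjusted p under 0.05, edgeR called 0 and DESeq2 called 2 higher. Without the first LPS with IL-10 library 2 inflammasome genes were called lower, and without either control library 2 were called higher. Of 18 cell death genes of the BCL-2 group 1 was higher and 1 lower at an unadjusted p under 0.05, and neither edgeR nor DESeq2 called any.

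The 3 antigen presentation genes that passed the test with all libraries, H2-Q6, H2-Q7 and Icosl, were lower. They made up 11.8% of the class I list and 7.14% of the class II and co-stimulatory list, against 2.23% of all genes. The class I gene H2-Q6 was at 348 and 296 normalized reads with IL-10 added, against 756 and 723 with LPS alone (log2 change -1.20 ± 0.18, adjusted p = 0.0058). The class I gene H2-Q7 was at 375 and 365 normalized reads with IL-10 added, against 1141 and 916 with LPS alone (log2 change -1.47 ± 0.25, adjusted p = 0.01). They were 2 of 17 class I genes tested, are near-identical members of the Qa-2 family that may share reads, and were not called without the second LPS with IL-10 library. In the list of class II and co-stimulatory genes, with 14 tested, Icosl alone was called, in 3 of the 14 fits that left out 1 library, and 11 had both LPS with IL-10 libraries below both LPS libraries, against 25.5% of all genes. For this list edgeR called 1 gene higher and 0 lower, TMM and quantile normalization each 1 higher and 1 lower, and the fit without the second LPS library 2 higher and 0 lower. Cd86, a co-stimulator of T cells, had 1940.1 and 673 normalized reads with IL-10 added and 2400.2 and 3646 with LPS alone (-1.37 ± 0.42, adjusted p = 0.089). The class II invariant chain Cd74 had 644 and 493 normalized reads with IL-10 added and 1006 and 1241 with LPS alone (-0.99 ± 0.30, adjusted p = 0.094).

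Genes of uptake and lipid handling passed in both directions. Of 24 phagocytic and scavenger receptors 5 rose and 1 fell, with a median of 0.04. That is 20.8% and 4.17%, against 2.68% and 2.23% of all genes. The antibody receptor Fcgr3 was at 21889.5 and 26249 normalized reads with IL-10 added, against 9767 and 13036 with LPS alone (log2 change 1.09 ± 0.20, adjusted p = 0.012). Mertk, a receptor for dying cells, was at 1972 and 2065 normalized reads with IL-10 added and 994 and 1250.3 with LPS alone (log2 change 0.86 ± 0.18, adjusted p = 0.022). The integrin chain Itgam, with a change of 0.86 ± 0.18, the antibody receptor Fcgr4 and the lipoprotein receptor Scarb1 also rose. Marco, a scavenger receptor for bacteria, was at 3109.6 and 1977 normalized reads with IL-10 added, against 7048 and 8216 with LPS alone (log2 change -1.62 ± 0.32, adjusted p = 0.018). The groups did not overlap in Fcgr3, Mertk or Marco, as in every gene called. Without the second LPS with IL-10 library 0 of the 24 were called, and without the first LPS library 0 rose.

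Of 14 targets of the sterol-sensing liver X receptor 4 rose (28.6%, against 2.68% of all genes) and 0 fell, with a median of -0.02. The phospholipid transfer protein Pltp was at 4417 and 6982 normalized reads with IL-10 added and 1243 and 1285 with LPS alone (log2 change 2.13 ± 0.35, adjusted p = 0.0088). The cholesterol exporter Abca1 was at 6756 and 8540.1 normalized reads with IL-10 added and 3449.8 and 3159 with LPS alone (log2 change 1.20 ± 0.23, adjusted p = 0.015). The desaturase Scd2 and the apolipoprotein Apoc2 changed by 1.71 ± 0.33 and 1.49 ± 0.36. None of the 4 had overlapping groups, and none was called without the second LPS with IL-10 library. Of 23 cholesterol synthesis genes Acat2 rose and 0 fell, and of 30 lysosome genes the protease gene Ctsk rose and 0 fell. These single calls are 4.35% and 3.33% of their lists, near the 2.68% of all genes called higher. Of 18 genes for nitric oxide, prostanoids and itaconate Arg1 and the thromboxane synthase gene Tbxas1 rose (11.1%) and 0 fell. Of 12 genes of alternative activation Arg1 and Il4ra rose (16.7%) and 0 fell. Acat2 was called in 2 and Ctsk in 3 of the 14 fits that left out 1 library of the table.

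Antioxidant genes were among those that fell, with 4 of 20 targets of the oxidative stress factor NRF2 lower and 0 higher and a median of -0.35. That is 20.0% lower, against 2.23% of all genes. Srxn1, a peroxiredoxin repair enzyme, was at 3247 and 3667 normalized reads in the LPS with IL-10 libraries, against 7996 and 7608 in the LPS libraries (log2 change -1.18 ± 0.14, adjusted p = 0.0019). The thioredoxin reductase Txnrd1 was at 5216 and 4856 normalized reads with IL-10 added and 9486 and 9523 with LPS alone (log2 change -0.92 ± 0.14, adjusted p = 0.0067). In both the libraries of a group lay close together. Gclc, a subunit of the first enzyme of glutathione synthesis, was at 249 and 243 normalized reads with IL-10 added and 817 and 543 with LPS alone (-1.43 ± 0.23). Slc7a11, the cystine importer, was at 1083 and 646 normalized reads with IL-10 added and 2693 and 2976 with LPS alone (-1.76 ± 0.34). Srxn1 was called in every fit that left out 1 library, and it was the 1 gene of the 4 called without the second LPS with IL-10 library.

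Of 17 iron genes 1 was higher (Hp) and 1 lower. These single calls are 5.88% of the list each, against 2.68% higher and 2.23% lower over all genes. Slc40a1, the iron exporter ferroportin, was at 1387 and 1652 normalized reads with IL-10 added and 4804 and 3165 with LPS alone (log2 change -1.36 ± 0.27, adjusted p = 0.017) and was not called without the first LPS library or without either LPS with IL-10 library. Hmox1, the haem-degrading enzyme, was at 58116 and 100510.0 normalized reads with IL-10 added and 47812 and 40439 with LPS alone (0.80 ± 0.27, adjusted p = 0.13).

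Immediate early transcription factors had calls in both directions, 11.1% of the list higher and 16.7% lower, against 2.68% and 2.23% of all genes. Of 18 tested, Jun and Fosl2 rose, and Maff, Ier3 and Nr4a1 fell, and none of the 5 was called without the second LPS with IL-10 library. Maff, a small Maf factor, was at 201 and 159 normalized reads with IL-10 added, against 585 and 519 with LPS alone (log2 change -1.62 ± 0.25, adjusted p = 0.0059). Jun, a subunit of AP-1, was at 1033 and 1526 normalized reads with IL-10 added and 646 and 501 with LPS alone (log2 change 1.14 ± 0.28, adjusted p = 0.042).

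Among 18 matrix genes Mmp19, Mmp8 and Timp1 rose (16.7%, against 2.68% of all genes) and 0 fell. The metalloprotease Mmp19 was at 1165 and 1659 normalized reads with IL-10 added and 336 and 228 with LPS alone (log2 change 2.32 ± 0.25, adjusted p = 0.00096). The neutrophil collagenase Mmp8 was at 293 and 335 normalized reads with IL-10 added and 90.3 and 133 with LPS alone (log2 change 1.51 ± 0.29, adjusted p = 0.016). S100a8, a subunit of calprotectin and a neutrophil marker, was at 1256 and 1163 normalized reads with IL-10 added, against 142 and 178 with LPS alone (log2 change 2.92 ± 0.34, adjusted p = 0.0015). Its partner S100a9 was at 294 and 181 normalized reads with IL-10 added and 183 and 225 with LPS alone (0.18 ± 0.25), with overlapping groups. The 10 neutrophil markers summed to 1603 and 1419.6 normalized reads with IL-10 added and 427 and 510.5 with LPS alone, mostly from S100a8 and S100a9, while the defining genes Ly6g, Elane and Mpo had under 6 normalized reads in every library.

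Proliferation genes differed between the LPS libraries. Of 25 mitosis genes 1 was called lower, Tpx2, which was called in 3 of the 14 fits that left out 1 library and not by edgeR, with library totals or with a replicate block. Of 25 DNA replication genes 0 were called, with 5 lower at an unadjusted p under 0.05, 0 called by edgeR and 6 lower by DESeq2. Mki67, a marker of cycling cells, had 1289 and 1429 normalized reads with IL-10 added and 4159 and 874 with LPS alone. Ccna2, the S phase cyclin, had 122 and 122 normalized reads with IL-10 added and 1222 and 110.5 with LPS alone. The first LPS library was high in both genes and the other 3 libraries were not. Without the second LPS library Ccna2 changed by -3.32 and Mki67 by -1.61, and without the first by 0.14 and 0.63. The direction of change in these genes thus depended on which LPS library was kept. The single mitosis call was 4% of its list, against 2.23% of all genes called lower. The first LPS library was also the lower LPS library in Il1b, Tnf and Il6, and the part of this in the results was not tested.

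**Figure D3:**
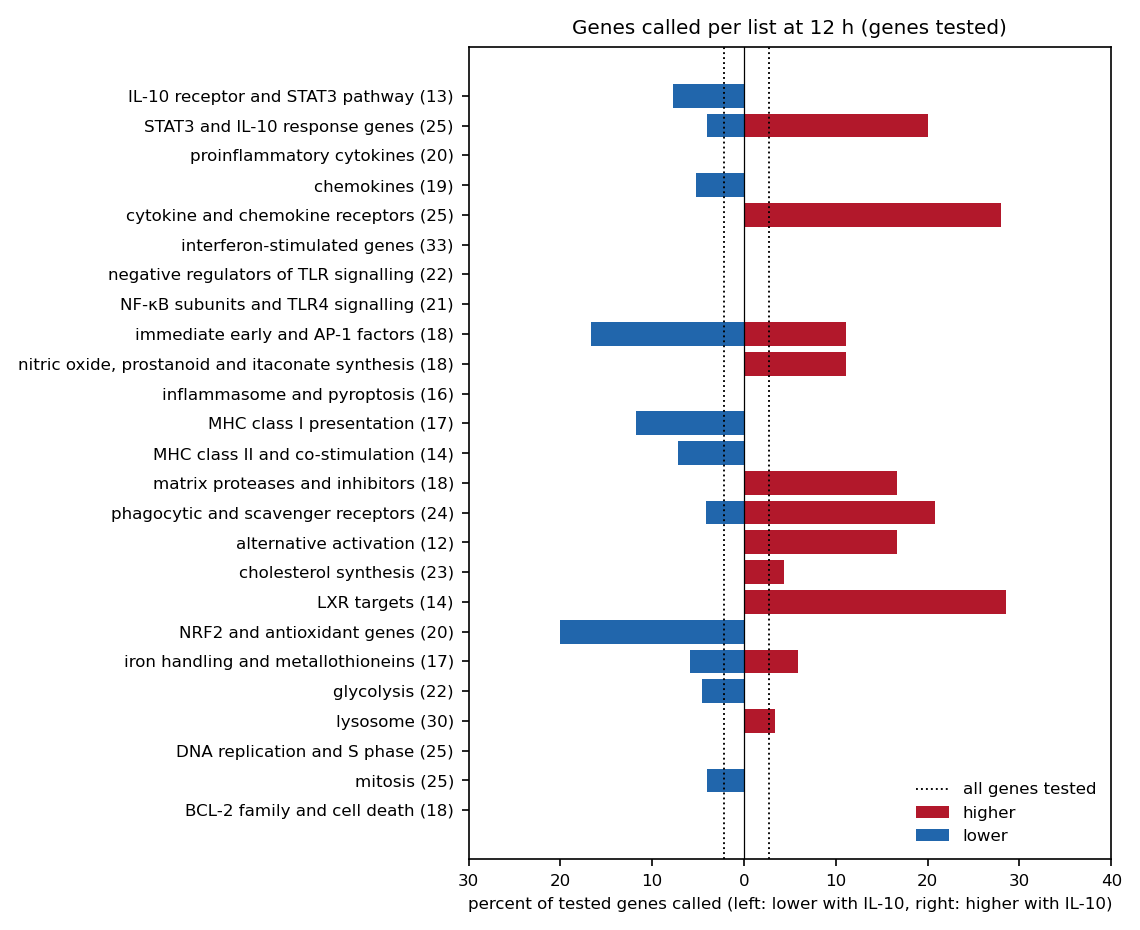
Share of tested genes called at 12 h in each gene list, in percent, drawn to the right for genes higher with IL-10 and to the left for genes lower with IL-10, with the number of genes tested in parentheses. Dotted lines mark the shares over all genes tested, 2.68% higher and 2.23% lower. Cytokine and chemokine receptors (a list without Cxcr3 and Ccr7) and liver X receptor targets have 28.0% and 28.6% of genes higher, and the cytokine list has no called gene.

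IL-10 had been added to LPS for 6 h in other libraries of the same table, where 3037 genes (23.7%) were called, 1750 higher (13.7%) and 1287 lower (10.0%). Scaling by library totals gave 3233 higher and 628 lower at 6 h, with a median change over all genes of 0.32, against 0.01 in the authors' scaling. Of the 344 genes higher at 12 h, 226 (65.7%) were also called higher at 6 h, where they were 12.9% of the genes called higher. Of the 286 lower at 12 h, 147 (51.4%) were also called lower at 6 h, 11.4% of those. At 6 h 16 of the 20 cytokines were lower and 1 higher, with a median change of -4.12. Of the 25 mitosis genes 18 were higher and 0 lower at 6 h, with a median change of 2.08. The median of their 12 h minus 6 h differences was -2.85. The difference between the effects at 12 h and at 6 h was called for 148 genes (1.15%), 34 with a positive (0.265%) and 114 with a negative difference (0.889%), and for 0 of the cytokines. Hp, Selp and Cxcr3, which changed by 5.74 ± 0.55, 5.41 ± 0.51 and -3.23 ± 0.50 at 6 h, had no called difference.

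The largest negative differences were in genes that IL-10 raised at 6 h. Lhfpl2, a tetraspan membrane protein, was at 3700.1 and 5414 normalized reads with IL-10 added, against 3273 and 2351 with LPS alone at 12 h. At 6 h Lhfpl2 was at 3399 and 3645 normalized reads with IL-10 added, against 93.2 and 99.5 with LPS alone. Its change was 0.69 ± 0.20 at 12 h and 5.18 ± 0.20 at 6 h, a difference of -4.49 ± 0.29 (adjusted p = 0.00012). Lhfpl2 was thus low under LPS alone at 6 h and not at 12 h, while the libraries with IL-10 were high at both times. Ppp1r3b, a glycogen-targeting phosphatase subunit, differed by -4.34 ± 0.33, Egln3, an oxygen-sensing prolyl hydroxylase, by -4.04 ± 0.48, and Ankrd37, an ankyrin repeat protein, by -3.84 ± 0.35. None of these passed the test at 12 h. Ccnf rose with IL-10 at 6 h (1.79 ± 0.32) and fell at 12 h (-2.52 ± 0.32), a difference of -4.31 ± 0.46. These 5 differences passed whichever library was left out.

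Some sugar metabolism genes were among the differences, with 4 of 22 glycolysis genes negative, against 0.889% of all genes, and 0 positive. The median difference of the list was 0.38, against -0.04 for all genes, so the list as a whole did not shift down. Hk2, the first enzyme of glycolysis, had 1229.8 and 1448 normalized reads with IL-10 added and 2486 and 2352 with LPS alone at 12 h. It fell by 0.86 on the log2 scale at 12 h (SE 0.17, adjusted p = 0.017) and rose by 1.20 at 6 h (adjusted p = 0.001), a difference of -2.05 ± 0.24 (adjusted p = 0.0055). The fall at 12 h was not called without the first LPS library or without either LPS with IL-10 library. Pfkfb3, which makes the activator of phosphofructokinase, changed by 1.54 ± 0.41 at 12 h and 4.68 ± 0.41 at 6 h. Arg2, the mitochondrial arginase, changed by 1.36 ± 0.41 at 12 h and 5.02 ± 0.41 at 6 h. Of the 14 fits that left out 1 library, the difference was called in 6 for Pfkfb3 and in 9 for Arg2.

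The positive differences were smaller in size. Metrnl, a secreted meteorin-like protein, was at 4821 and 3624 normalized reads with IL-10 added and 4160.0 and 5765 with LPS alone at 12 h. At 6 h Metrnl was at 1596 and 1086 normalized reads with IL-10 added, against 8854 and 7592 with LPS alone, a difference of 2.41 ± 0.44 in log2 change (adjusted p = 0.029). Metrnl was thus lower with IL-10 at 6 h, and its groups overlapped at 12 h. Inpp1, an inositol phosphatase, differed by 2.07 ± 0.42, the polo-like kinase Plk2 by 2.06 ± 0.32 and the small GTPase Rhob by 1.89 ± 0.31. Rhob was called lower at both times, at 12 h in 3 of the 14 fits that left out 1 library. Rab19, a small GTPase, differed by 2.00 ± 0.41 and rose at 12 h, with 140.1 and 237 normalized reads with IL-10 added and 48.1 and 42.0 with LPS alone. Mertk changed by 0.86 ± 0.18 at 12 h and -0.83 ± 0.18 at 6 h (adjusted p of the difference 0.013). The 5 differences of Metrnl, Inpp1, Plk2, Rhob and Rab19 were lost without any 1 of the 4 libraries at 6 h or without the first LPS with IL-10 library at 12 h.

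**Figure D4:**
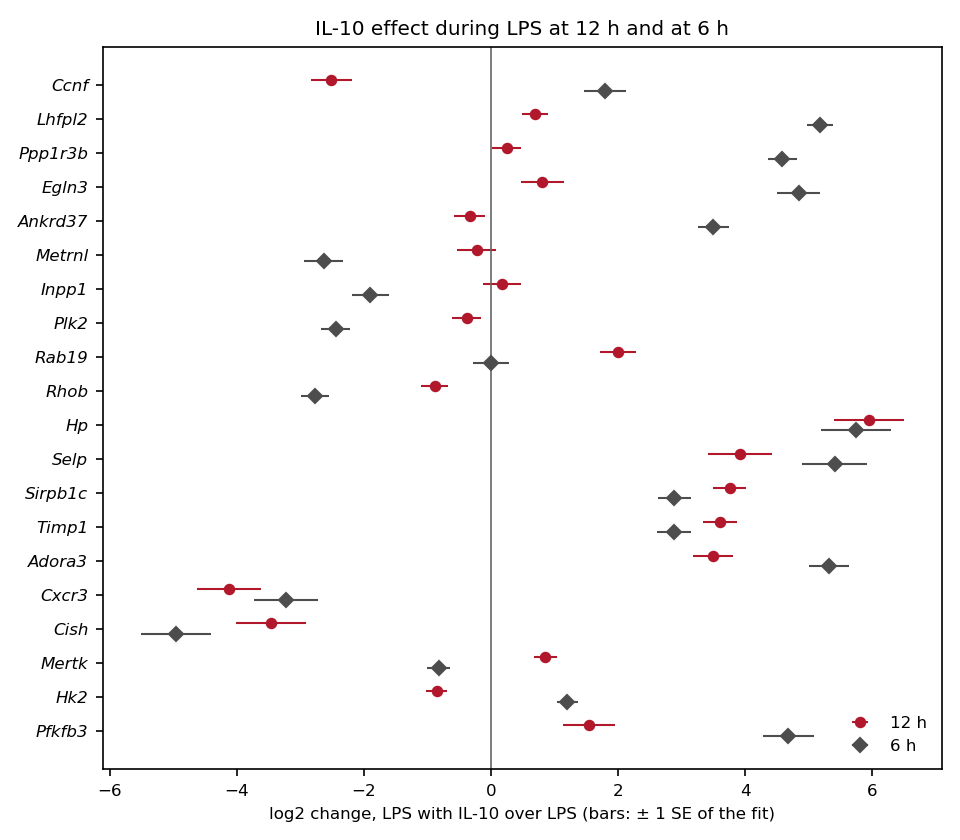
Log2 change of LPS with IL-10 over LPS at 12 h (red circles) and at 6 h (grey diamonds), with bars of 1 SE, for the genes with the largest differences between the times and for others named in the text. Lhfpl2 changed by 0.69 at 12 h and by 5.18 at 6 h, whereas Hp changed by 5.95 and 5.74.

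Whether IL-10 acted differently with LPS than without it was asked by the interaction at 12 h, the effect of IL-10 during LPS minus that of IL-10 alone over control. It was called for 49 genes (0.382%), 19 positive (0.148%) and 30 negative (0.234%). The control has no stated time, so time in culture and IL-10 cannot be told apart in the effect without LPS. Gm5150 had 116 and 87.3 normalized reads with IL-10 alone, against 27.2 and 53.9 in control libraries (interaction 3.66 ± 0.48, adjusted p = 0.013). S100a8 had 188 and 79.5 normalized reads with IL-10 alone, against 160.2 and 219 in control libraries (3.53 ± 0.48, adjusted p = 0.014). Hp had 63.9 and 20.4 normalized reads with IL-10 alone, against 21.5 and 9.30 in control libraries (4.66 ± 0.78, adjusted p = 0.033). In these 3 genes the LPS with IL-10 libraries were higher than all libraries of the other 3 groups.

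Fgr, a Src family kinase, was at 256 and 461 normalized reads with IL-10 added, against 56.6 and 35.0 with LPS alone. Without LPS, Fgr was at 128 and 123 normalized reads with IL-10 alone, against 181 and 153 in control libraries (interaction 3.33 ± 0.51). Fos, the partner of Jun in AP-1, was at 461 and 586 normalized reads with IL-10 added and 529.6 and 215 with LPS alone. Without LPS, Fos was at 266 and 265 normalized reads with IL-10 alone, against 1867 and 1475 in control libraries (3.26 ± 0.55). Fos was thus highest in the control libraries, and its groups overlapped under LPS. All 5 positive interactions were lost without the second LPS with IL-10 library, and Hp, Fgr and Fos also without several other libraries.

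The largest negative interactions were in genes that had higher values with IL-10 alone than in control libraries. Ccl8 had 266 and 158 normalized reads with IL-10 alone, against 3.75 and 1.86 in control libraries (interaction -5.77 ± 0.42, adjusted p = 0.00047). Socs3 had 1305 and 958 normalized reads with IL-10 alone, against 52.5 and 17.97 in control libraries (-4.45 ± 0.57, adjusted p = 0.012). Fgl2, a membrane prothrombinase, had 3809 and 2612 normalized reads with IL-10 alone, against 114 and 226 in control libraries (-4.69 ± 0.51). Under LPS these 3 genes changed by 0.04 ± 0.30, 0.69 ± 0.40 and -0.40 ± 0.36, none past the test. Stat3 had 3464 and 3339 normalized reads with IL-10 alone, against 1289 and 1053 in control libraries (-1.87 ± 0.30, adjusted p = 0.033). Ednrb had 4886 and 4652 normalized reads with IL-10 alone, against 192 and 322 in control libraries (-2.45 ± 0.40, adjusted p = 0.033). Ednrb was higher with IL-10 both with and without LPS, Stat3 without LPS. Ahr, the aryl hydrocarbon receptor, had 211 and 68.7 normalized reads with IL-10 added and 552 and 652 with LPS alone (interaction -3.75 ± 0.63). Ntng2, a netrin-G protein, had 96.3 and 82.9 normalized reads with IL-10 added and 427 and 407 with LPS alone (interaction -3.51 ± 0.59). Their changes during LPS were smaller in size. Leaving out 1 library, these lay between -3.11 and -1.50 for Ahr and between -2.32 and -2.10 for Ntng2. Ccl8, Fgl2 and Socs3 were called whichever library was left out, whereas Ahr, Ntng2, Stat3 and Ednrb were not called without the second LPS with IL-10 library nor without either IL-10 library at 12 h. With the 4 groups of the interaction alone in the fit, 1 gene was called, and of the 5 largest negative interactions Ccl8 was.

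**Figure D5:**
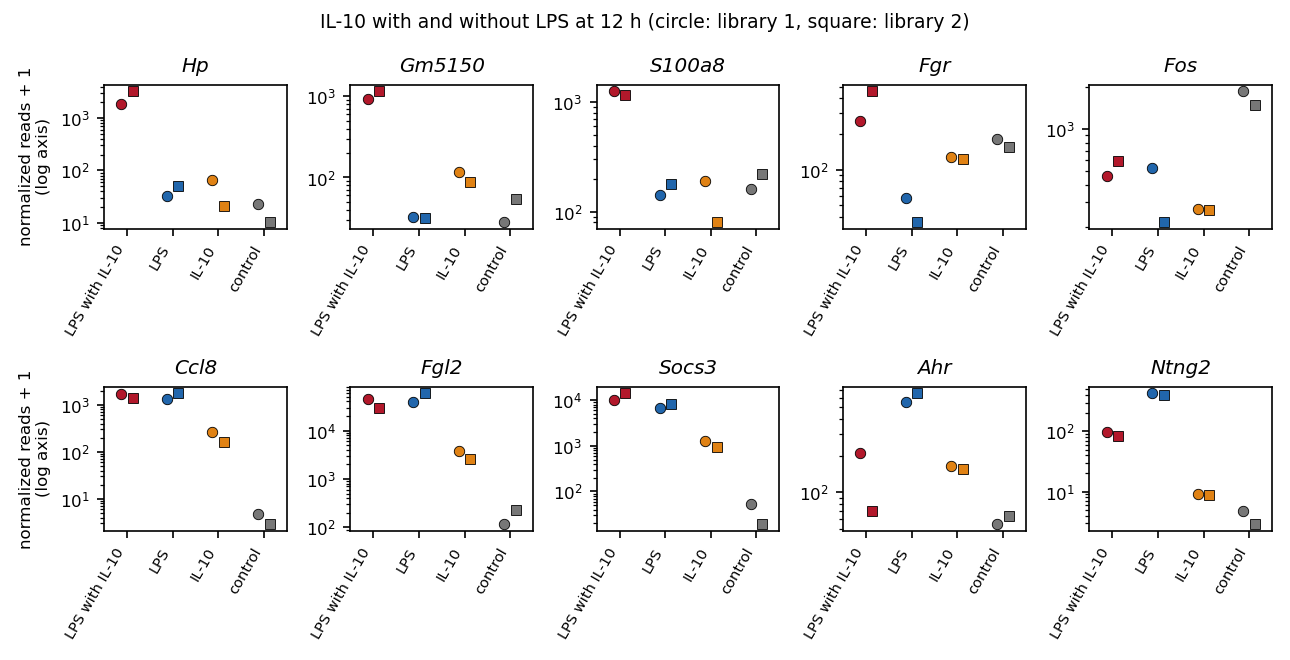
Normalized reads plus 1 (log axis, scaled per gene) in LPS with IL-10, LPS and IL-10 alone libraries at 12 h and in control libraries without a stated time. Each group has 2 libraries (circle and square), and the genes are the 5 largest positive (top) and 5 largest negative (bottom) interactions. Ccl8 is at 1735 and 1423 in LPS with IL-10 libraries and at 1336 and 1758 in LPS libraries, against 266 and 158 with IL-10 alone and 3.75 and 1.86 in control libraries.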

How the data were processed

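RNA was extracted with RNeasy kits with on-column DNase and sequenced from TruSeq libraries, per the labels' protocols. The deposited signal values are normalized reads, counts per gene scaled by the authors with one factor for each library. TopHat2, DESeq2 and GRCm38 are named, per the submitters' processing notes, with versions, counter and gene models not stated. All values in the table were whole reads within 0.01 reads. The table of the 3 h experiment was not used here, because it was normalized separately.

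A gene was tested if 2 or more libraries held 10 or more normalized reads, which kept 12817 of 38293. Values were taken as log2(normalized reads + 1) and fitted with limma 3.58.1 (R 4.3.3, empirical Bayes with trend), with all 14 libraries in one model of 7 groups and Benjamini-Hochberg adjustment over all genes tested. Adjusted p-values in the text are from this fit unless another tool is named, and the threshold was 0.05. Count tests on the recovered reads used edgeR 4.0.16 and DESeq2 1.42.0 as alternatives. In simulated counts for the 12 h comparison, with 12817 genes, 22% of 100 genes changed 2-fold and 76% of 100 changed 4-fold were recovered, with 10 false calls. Apart from the set changes, each simulated gene had one mean in all libraries and independent counts. The simulation thus held no GC trend or other deviation of a whole library, and its false calls do not measure those in the data. Gene coordinates and GC content are from GENCODE M21 (36345 identifiers matched).

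The genes named are the 12 largest rises and falls and the 5 largest differences and interactions in each direction, among genes past the threshold (for rises and falls, also with no overlap at 12 h) with a mean of at least 100 normalized reads, and the leading members of each list and of a panel. The members and lists were chosen with earlier results of these data known. One gene of the lists is not reported here.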

Additional observations from a re-analysis of the deposited data

Results flagged for a closer look

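In 31 results of named genes an effect of IL-10 differed between times or between backgrounds by a test of the difference itself (limma, adjusted p under 0.05). Values are differences of log2 changes. No group has enough libraries for a test of outlying samples.

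For the effect during LPS at 12 h minus that at 6 h, the negative differences were -4.49 for Lhfpl2, -4.34 for Ppp1r3b, -4.31 for Ccnf, -4.04 for Egln3 and -3.84 for Ankrd37. Genes of metabolism followed, with -3.66 for Arg2, -3.14 for Pfkfb3 and -2.05 for Hk2. The chaperone gene Hsph1 differed by -1.74, the RNA helicase gene Dhx33 by -1.55 and the transcription factor gene Nfil3 by -1.51. Positive differences were 2.41 for Metrnl, 2.07 for Inpp1, 2.06 for Plk2, 2.00 for Rab19 and 1.89 for Rhob. Mertk differed by 1.68 and the thromboxane synthase gene Tbxas1 by 1.01. The differences of Dhx33, Nfil3 and Tbxas1 were not called in most of the fits that left out 1 library.

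For the effect during LPS minus that of IL-10 alone over control, positive interactions were 4.66 for Hp, 3.66 for Gm5150, 3.53 for S100a8, 3.33 for Fgr, 3.26 for Fos and 2.64 for Sirpb1c. Negative interactions were -5.77 for Ccl8, -4.69 for Fgl2, -4.45 for Socs3, -3.75 for Ahr, -3.51 for Ntng2, -2.45 for Ednrb and -1.87 for Stat3.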

How the results depend on the processing

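The counts at 12 h, 344 higher and 286 lower, moved both with the libraries used and with the treatment of GC content. Leaving out 1 library at a time gave 51 to 494 higher and 35 to 617 lower, the fewest without the second LPS with IL-10 library. Libraries outside the comparison moved the counts too, through the estimate of the spread, to 342 or 343 calls in all without an IL-10 library at 6 h and 903 without a control library. Fitting only the 2 groups gave 34 and 18, library weights 150 and 109, and leaving out the first library of both groups 687 and 806. DESeq2 called 521 higher and 540 lower, and removing a GC trend per library 961 and 1048. Library totals gave 145 lower. The 148 differences between times became 89 under quantile normalization, 61 with only the groups compared, 762 by DESeq2, 1092 with the GC trend removed, 16 without the first 12 h library of both LPS groups, and 9 to 903 leaving out 1 library. The 49 interactions became 32 with library totals, 82 under quantile normalization, 29 without a filter on low values, 91 with 5 added before the log, 1 with only the groups compared, 259 by DESeq2, 9 with library weights, 386 with the GC trend removed, 464 without the first 12 h library of both LPS groups, and 11 to 154 leaving out 1 library. The 3037 calls at 6 h, of which 57.6% were higher, became 3861 with library totals, of which 83.7% were higher, 4914 with the GC trend removed and 866 to 4371 leaving out 1 library. The cause was not tested.

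Groups share replicate numbers, but same-numbered LPS with IL-10 and LPS libraries at 12 h deviated in opposite directions (correlation -0.411), while those at 6 h deviated together (0.329). Over all pairs of groups the correlation ran from -0.411 to 0.703, and no label ties a number to a shared mouse or day, so the libraries are taken to share only a number. With the replicate block the calls were 253 higher and 223 lower at 12 h, 85 differences between times and 30 interactions. The block with the GC trend removed gave 834 and 902 at 12 h, 718, 280 and, at 6 h, 4610. The block in the 4 libraries alone gave 99 higher and 89 lower. Crossed numbers, chosen after seeing the data as was that fit, gave 743 higher and 815 lower.

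Of 186 named genes none turned its direction under another scaling, filter, pseudocount, tool, weight, block or GC setting. Without the first library of both groups 9 did at 12 h: Inpp1 (-0.58), Ankrd37 (0.071), Ccl8 (-0.30), Prc1 (0.017), Ccna2 (0.14), Lck (-0.76), S100a9 (-0.31), Mki67 (0.71) and Plau (0.12). Leaving out 1 library turned 23 genes, none of them called. The log2 change lay between -5.86 and 0.044 for Il1b, -4.44 and 0.30 for Tnf, -5.80 and 0.72 for Il6, -6.25 and 0.040 for Il1a, -6.22 and 0.87 for Il12a, -1.41 and 0.59 for Il23a, -4.80 and 0.82 for Cxcl1, -3.83 and 0.44 for Cxcl2, -5.81 and 0.40 for Cxcl3 and -2.66 and 0.46 for Nlrp3. It lay between -0.46 and 0.0069 for Metrnl, -0.23 and 0.56 for Inpp1, -0.041 and 0.53 for Ppp1r3b, -0.027 and 1.27 for Fos, -0.16 and 0.23 for Ccl8, -0.030 and 0.25 for Nfil3 and -0.34 and 0.65 for Bcl3. For genes of proliferation and other cell types it lay between -3.32 and 0.14 for Ccna2, -1.61 and 0.63 for Mki67, -2.14 and 0.028 for Plau, -0.25 and 1.88 for Lck, -0.16 and 0.53 for S100a9 and -2.18 and 0.31 for Pdgfrb.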

Other observations

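Genes of ribosome assembly were lower with IL-10 added. The list of 62 genes for ribosome assembly and rRNA processing was written after values had been seen, so its counts are a description. Of the 62, 21 were called lower (33.9%, against 2.23% of all genes) and 0 higher. In 57 both LPS with IL-10 libraries lay below both LPS libraries, against 25.5% of all genes, and the median log2 change was -0.90. Tsr1, a factor of small subunit assembly, was at 80.8 and 47.4 normalized reads with IL-10 added, against 323 and 183 with LPS alone (log2 change -1.96 ± 0.33, adjusted p = 0.0092). Nolc1, a nucleolar phosphoprotein, was at 198 and 117 normalized reads with IL-10 added, against 525 and 357 with LPS alone (log2 change -1.50 ± 0.28, adjusted p = 0.015). Mdn1, an ATPase that removes assembly factors from the large subunit, was at 189 and 108 normalized reads with IL-10 added and 545 and 354 with LPS alone (log2 change -1.62 ± 0.29, adjusted p = 0.012). In these 3 genes the second LPS with IL-10 library was lower than the first. Summed over the list, levels were 40221 and 26893 normalized reads with IL-10 added and 53393 and 53812 with LPS alone. Without the second LPS with IL-10 library 0 of the 62 were called, without the first LPS library 2 were, and with library totals 6 were.

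Chaperone genes, in another list written after values had been seen, were also lower, 8 of 39 with 0 higher and a median of -0.53. That is 20.5% lower, against 2.23% of all genes. Hsph1, an Hsp110 chaperone, was at 859 and 947 normalized reads with IL-10 added, against 3333 and 3089 with LPS alone (log2 change -1.83 ± 0.17, adjusted p = 0.00038), and it was called in each fit that left out 1 library. Hsp90aa1, the inducible Hsp90, was at 6734 and 5468 normalized reads with IL-10 added, against 17743 and 19402 with LPS alone (log2 change -1.61 ± 0.27, adjusted p = 0.0086). Hspd1, the mitochondrial Hsp60, was at 1939 and 1398 normalized reads with IL-10 added and 3656 and 3645 with LPS alone (log2 change -1.15 ± 0.23, adjusted p = 0.021). In all 3 both LPS with IL-10 libraries lay below both LPS libraries. Leaving out 1 library left 3 to 9 chaperone genes called lower.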
